A study of Mus musculus with 6 samples.

Results

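The cyclic nucleotide phosphodiesterase genes Pde1a, Pde1c, Pde3a, Pde3b, Pde4b, Pde4d, Pde5a, Pde7b, Pde8b and Pde10a were followed in vascular smooth muscle cells (SMC). They were taken by symbol from the deposited table, 10 genes of 32179, and the table lists 11 further cyclic nucleotide phosphodiesterase genes. Cells carrying the mTmG reporter, which makes EGFP where Cre has acted, were sorted from skeletal muscle of male C57BL6J mice aged 8 to 24 weeks. The 3 control and 3 iSM-G5C-KO (KO) libraries all came from tamoxifen-induced animals whose tissue label reads Gprc5c-floxed, while the controls carry the genotype label wild type. In the KO mice GPRC5C, an orphan G protein-coupled receptor, was depleted from smooth muscle, and the question was what this does to gene expression. The Cre driver, and whether each library is 1 animal, are not given in the sources used here, so the spread between libraries may be partly technical.

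Phosphodiesterases break down cAMP and cGMP, the second messengers through which beta-adrenergic, prostacyclin and nitric oxide signals relax vascular smooth muscle. The families differ in substrate. Those of Pde1, Pde3 and Pde10 cleave both nucleotides, those of Pde4, Pde7 and Pde8 cleave cAMP, and that of Pde5 cleaves cGMP. Calcium and calmodulin activate the Pde1 enzymes, cGMP inhibits the Pde3 enzymes, and the Pde5 and Pde3 enzymes are targets of vasodilator drugs.

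The deposited values are normalised read counts: read counts per gene that the authors scaled per library and rounded. The table holds an estimated 1481186 to 2935114 reads per library. In each group the library numbered 1 was deepest and that numbered 3 shallowest, and an effect of number cannot be told apart from one of depth. Control library 3 stood apart, with 29707 genes above 0 against 20481 to 21179 in the others. For Gprc5c itself the control libraries 1, 2 and 3 had 428, 532 and 497 counts and the KO libraries 328, 305 and 360, which is 68.2% of the control mean. These are whole-gene counts, which can include reads from exons that were kept.

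Smooth muscle markers were high, with Myh11, the smooth muscle myosin heavy chain, at 3883 to 4940 in the 6 libraries. The summed level of 10 smooth muscle markers was 12065 to 12414 in controls and 10466 to 12316 in KO libraries. In KO libraries 10 of 10 had a lower mean log2 level, with a median log2 fold change of -0.129. Acta2 hardly differed, at 995, 1118 and 1207 in controls against 1067, 998 and 1260 in KO libraries. Pericyte markers, also high, summed to 11330 to 17099 in controls and 12028 to 19641 in KO libraries, with 10 of 10 higher. Endothelial markers summed to 350 to 682 and 406 to 952 (10 of 10 higher), and skeletal muscle fibre markers to 1638 to 3939 and 2307 to 9318 (12 of 12 higher). The 9318 is KO library 3, where Ttn, the titin gene, alone had 5386. Without Ttn, Ryr1 and Neb the fibre markers summed to 2775 in control library 3 and 2777 in KO library 3. The KO library stayed higher in the other numbers, at 1453 against 1050 in number 1 and 2658 against 2074 in number 2. Of the 12 fibre markers, 6 were lower in KO library 3 than in control library 3. Fibroblast markers summed to 3381 to 4975 in controls and 2794 to 4866 in KO libraries, with 8 of 10 lower. Leukocyte markers summed to 104 to 435 and 107 to 513 (5 of 7 tested higher). In these lists 0 markers were at 0 in all libraries. Median log2 fold changes were 0.182, 0.223, 0.208, -0.161 and 0.027 in the pericyte, endothelial, muscle fibre, fibroblast and leukocyte lists. These directions are with the authors' scaling. An upper-quartile scaling over the genes above 0 in each library moved the median of all genes by -0.25. Marker directions were not computed with it. In sorted bulk samples, fewer cells of a type and less RNA per cell cannot be told apart.

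RefSeq promoter windows (build GRCm38.p6, 250 bases before to 50 after an annotated start) were available for 8 of the 10 genes, 21 windows in all. Pde3a and Pde3b had none. Windows of Pde8b and Pde7b, the members higher in KO libraries in every same-numbered pair with the smallest p, and of Pde5a and Pde4b, which were lower, are shown 5′ to 3′. Capitals mark the core of the cAMP response element (TGACG, or CGTCA on the other strand) and the GC box (GGGCGG, or CCGCCC). The cAMP response element is the site of CREB, the transcription factor activated by the cAMP-dependent kinase.
Pde8b, upstream start, chr13:95250287-95250586, minus strand: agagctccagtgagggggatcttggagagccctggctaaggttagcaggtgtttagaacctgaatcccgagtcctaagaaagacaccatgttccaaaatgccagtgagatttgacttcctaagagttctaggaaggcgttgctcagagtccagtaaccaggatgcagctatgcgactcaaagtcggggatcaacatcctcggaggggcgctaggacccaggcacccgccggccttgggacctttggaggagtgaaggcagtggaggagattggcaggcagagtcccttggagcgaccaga
Pde8b, downstream start, chr13:95223001-95223300, minus strand: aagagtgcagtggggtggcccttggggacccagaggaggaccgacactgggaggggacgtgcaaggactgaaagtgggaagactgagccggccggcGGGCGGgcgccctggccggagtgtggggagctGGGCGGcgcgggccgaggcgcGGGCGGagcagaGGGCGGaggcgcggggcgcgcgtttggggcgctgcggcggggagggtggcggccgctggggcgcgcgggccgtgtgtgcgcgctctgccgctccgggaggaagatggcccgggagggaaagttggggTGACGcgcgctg
Pde7b, chr10:20548279-20548578, minus strand: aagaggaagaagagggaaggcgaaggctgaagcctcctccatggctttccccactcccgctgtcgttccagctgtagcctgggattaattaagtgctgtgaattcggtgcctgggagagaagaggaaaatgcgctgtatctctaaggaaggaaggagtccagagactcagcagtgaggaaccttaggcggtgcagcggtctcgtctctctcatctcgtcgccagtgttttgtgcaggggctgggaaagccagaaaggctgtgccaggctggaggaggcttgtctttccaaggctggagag
Pde5a, chr3:122728908-122729207, plus strand: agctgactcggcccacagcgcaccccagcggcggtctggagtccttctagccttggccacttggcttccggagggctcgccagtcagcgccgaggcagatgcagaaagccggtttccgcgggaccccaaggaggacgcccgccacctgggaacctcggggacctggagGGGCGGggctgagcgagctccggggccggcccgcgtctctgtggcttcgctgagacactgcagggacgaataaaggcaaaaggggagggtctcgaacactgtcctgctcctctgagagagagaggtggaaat
Pde4b, chr4:102421305-102421604, plus strand: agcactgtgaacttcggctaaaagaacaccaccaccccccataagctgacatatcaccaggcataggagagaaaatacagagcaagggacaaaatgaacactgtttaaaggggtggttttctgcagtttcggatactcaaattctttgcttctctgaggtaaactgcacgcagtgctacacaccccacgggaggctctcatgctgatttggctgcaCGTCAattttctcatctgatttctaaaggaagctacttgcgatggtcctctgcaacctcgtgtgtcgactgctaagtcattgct

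The downstream Pde8b window held 4 GC boxes and a TGACG that begins 38 bases after the start, at a GC content of 76.3%. The upstream Pde8b window (55.3% GC) and the Pde7b window (55.7%) held neither motif. The Pde5a window, at 66.3% GC, held a single GC box 82 bases before the start, and the Pde4b window shown a CGTCA beginning 34 bases before it. That window is 1 of 4 of Pde4b, and the other 3 held no core. Of the 5 Pde8b windows 2 are shown, and the core was in 1 of the 5. On both strands the 5-base core was in 3 of the 21 member windows and in 20.8% of the 32817 windows of all genes. The GC box was in 5 of 21 and in 35.6%, and the full element TGACGTCA, which contains the core, in 0 of 21 and in 1.79%. The CArG box, the SRF motif of many smooth muscle genes, was in 0 of 21 and in 1.63%, and TATAAA in 2 of 21 and in 13.6%. Gene counts do not show which start was used, and a match of letters is not a bound site.

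Per kb of merged exon, which allows levels to be compared between genes, Pde3a was highest among the 10. Its level was 119 ± 18.4 normalised counts per kb (SD, n = 6 libraries), followed by Pde5a at 85.5 ± 17.2. Pde8b (48.9 ± 17.2), Pde1a (46.6 ± 8.72) and Pde4b (42.2 ± 20) came next and overlapped. Pde7b stood at 16.1 ± 3.83. Pde10a (4.16 ± 0.819), Pde4d (3.47 ± 1.27) and Pde3b (2.76 ± 0.924) formed a low group, and Pde1c was lowest at 0.698 ± 0.271. Merged exons count every annotated isoform, which lowers the value of a gene with many exons such as Pde1c, with 20067 bp.

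The order held only in part, both across and within libraries. Neighbours overlapped over the 6 libraries at most steps, but not from Pde7b to Pde10a or from Pde3b to Pde1c. Pde4b and Pde7b only met, at 21.9 per kb in KO library 3, the lowest Pde4b and the highest Pde7b value. Pde3a was nevertheless above Pde5a in 6 of 6 libraries and Pde5a above Pde8b in 5 of 6, the exception being KO library 3. Pde8b was above Pde1a in 3 of 6. Pde1a was above Pde4b in 4 of 6, as were Pde10a above Pde4d and Pde4d above Pde3b.

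**Figure D1:**
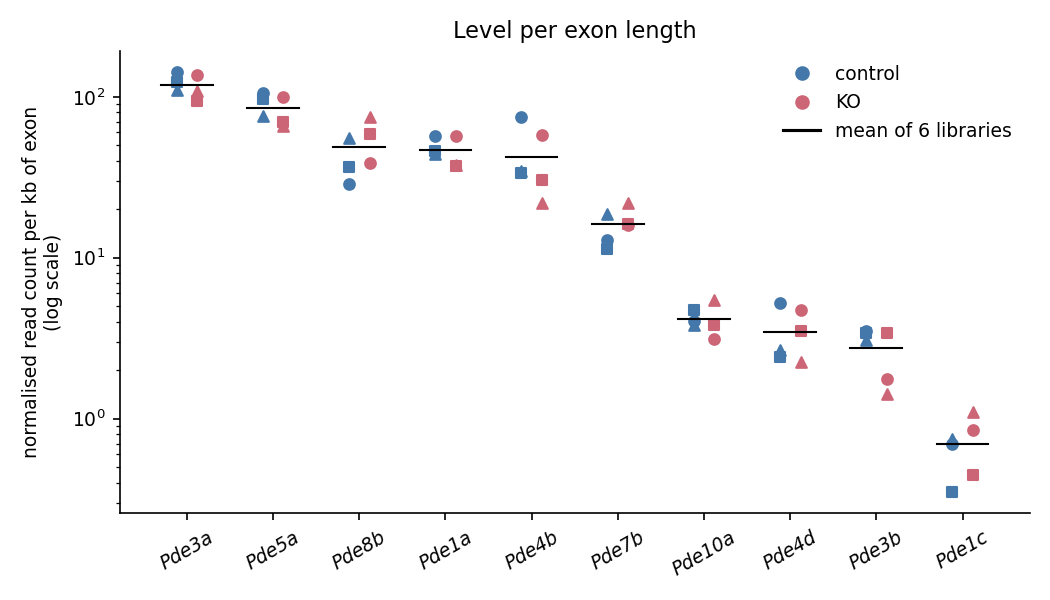
Level of each gene per kb of merged exon (log axis) in the 6 libraries. Circles, squares and triangles are libraries numbered 1, 2 and 3, and bars are means of 6 libraries, from 119 for Pde3a to 0.698 for Pde1c.

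Over all genes, limma (log2 of value + 1, 12735 genes with a mean of at least 10) called 0 genes at an adjusted p of 0.05, a background of 0%, and 0 of the 10 phosphodiesterase genes, all of which were tested. Before adjustment 230 genes (1.81%) had a p under 0.05, and 0 of the 10 did. The targeted gene, Gprc5c, was not called either, although its groups did not overlap. Its log2 fold change was -0.549 (unadjusted p = 0.00323, adjusted p = 0.999 with limma). The groups were without overlap in 0 of the 10 and in 4.91% of all genes. The median log2 fold change of the 10 was -0.11, with 4 higher and 6 lower, beside 0.0011 over all tested genes.

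The libraries of the same number deviated together over all genes, and the fit that keeps the number as a block changed the unadjusted count. No label says what a number marks. With the block, 1 gene of 12735 passed the adjusted threshold (0.00785%), which was not a phosphodiesterase gene. Gprc5c did not pass with the block (adjusted p = 0.142 with limma). Before adjustment the blocked fit had 1305 genes under 0.05 (10.2%) and 5 of the 10. Of these 2, Pde8b and Pde7b, were higher (4.29% of all genes) and 3, Pde4b, Pde5a and Pde3b, lower (5.96%). Without number 1, 2 or 3 the blocked fit had 4, 3 and 2 of the 10 under 0.05, beside 11.5%, 6.42% and 6.29% of all genes. Pde8b was among them each time. Without the block, the count of the 10 under 0.05 was 4 with sample quality weights (17.5% of all genes), 3 without KO library 1 (10.2%), 2 without control library 3 (2.37%) and 1 without KO library 2 (1.34%). These counts include Pde3a with the weights and Pde1a without KO library 1, which are not among the 5 of the blocked fit. Over all alternatives the adjusted p of the 5 genes of the blocked fit was between 0.113 and 1.00 in limma. In 6 of the 10 the KO library was on the same side of its control in all 3 numbers (29.4% of all genes): Pde8b, Pde7b and Pde1c higher, and Pde4b, Pde5a and Pde3a lower. With an upper-quartile scaling over the genes above 0 in each library, which moved the median of all genes by -0.25, 0 were higher in all 3 numbers (1.27% of all genes) and 4 were lower, Pde10a with the same 3 (25.5%). It lowered the log2 fold change of each of the 10 genes by 0.24 to 0.25. With the authors' scaling those shares were 14.0% and 15.4%. With upper-quartile scaling over all listed genes and with median-ratio scaling, Pde3b was also lower in all 3 numbers and the 3 higher genes were the same. The genes were chosen with earlier results of these data known, so these counts are descriptions.

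**Figure D2:**
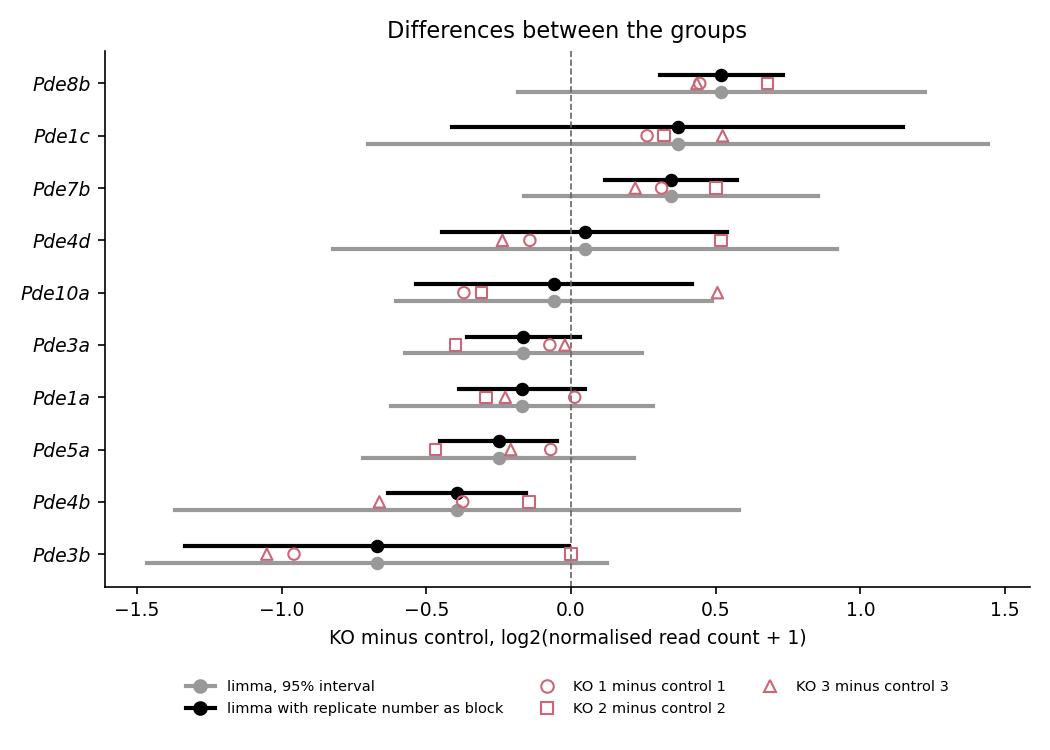
Difference between KO and control libraries on the log2(normalised read count + 1) scale, with 95% intervals from limma without (grey) and with (black) the replicate number as a block. Open symbols are the differences between same-numbered libraries, all above 0 for Pde8b, Pde7b and Pde1c (not so with upper-quartile scaling over genes above 0) and all below 0 for Pde4b, Pde5a and Pde3a.

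Among the cAMP-specific enzymes Pde8b and Pde7b had higher means in KO libraries. Both encode enzymes of high affinity for cAMP, and Pde8 enzymes resist the general inhibitor IBMX. Pde8b had 168, 215 and 326 counts in the control libraries 1, 2 and 3, against 229, 345 and 441 in the KO libraries. The library numbered 3 was highest in both groups, the KO library was above its control in every number, and the groups overlapped. The control mean was 236.3 ± 81.1 and the KO mean 338.3 ± 106 (SD, n = 3 each), so the log2 fold change was 0.52 (standard error 0.30). Limma did not call it (adjusted p = 0.999, 95% interval -0.18 to 1.22). With the block the standard error was 0.093 and the interval 0.31 to 0.73, at an unadjusted p of 0.000386 and an adjusted p of 0.142.

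Pde7b had 160, 141 and 233 counts in controls against 199, 200 and 272 in KO libraries. Again both libraries numbered 3 were highest of their group and the groups overlapped. Means were 178 ± 48.6 and 223.7 ± 41.9 (SD, n = 3 each), a log2 fold change of 0.35 with an interval of -0.16 to 0.85 in limma (adjusted p = 0.999). With the block the interval was 0.12 to 0.57 and the adjusted p 0.281. The summed pericyte markers were also highest in both libraries numbered 3 and higher in the KO library of every number, with 11330, 13360 and 17099 in controls against 12028, 15123 and 19641. The part of the pericyte, endothelial and muscle fibre transcripts in the Pde8b and Pde7b differences was not tested.

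An antisense gene, Gm48420, shares 447 bp of exon with Pde8b in GENCODE M21. The sources used here do not say if counting used strand, so its reads cannot be told apart from those of Pde8b. The fold change of Pde8b was positive in all 19 alternative settings, from 0.27 to 0.78, and that of Pde7b from 0.092 to 0.56. Without control library 1 Pde8b was at 0.30, as without KO library 3, and Pde7b was at 0.20 without control library 2 or KO library 3 and at 0.56 without control library 3. The lowest value of both came from the upper-quartile scaling over genes above 0, and both were above the median of all genes there.

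Pde4b, a cAMP-specific enzyme induced by cAMP itself and by inflammatory signals in many cells, was lower in the KO library of every number. It had 792, 354 and 366 counts in controls against 611, 320 and 231 in KO libraries. Both libraries numbered 1 were far above the rest, and the groups overlapped. Means were 504 ± 249 and 387.3 ± 199 (SD, n = 3 each), a log2 fold change of -0.39 with an interval from -1.37 to 0.58 in limma (adjusted p = 0.999). With the block the interval was -0.63 to -0.15 and the adjusted p 0.255. Without control library 1 and without the block the difference was -0.015, and it was -0.082 with KO library 3 left out, -0.59 with control library 2 left out and -0.78 with KO library 1 left out.

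Its relative Pde4d, the largest gene of the 10 at 1299.3 kb, had 63, 29 and 32 counts in controls against 57, 42 and 27 in KO libraries. The libraries numbered 1 were high in both groups here too. The log2 fold change was 0.05, with an interval from -0.82 to 0.92, and the differences within numbers were -0.14, 0.52 and -0.24. A fold of 0.565 to 1.89 is therefore within what limma allows for Pde4d.

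**Figure D3:**
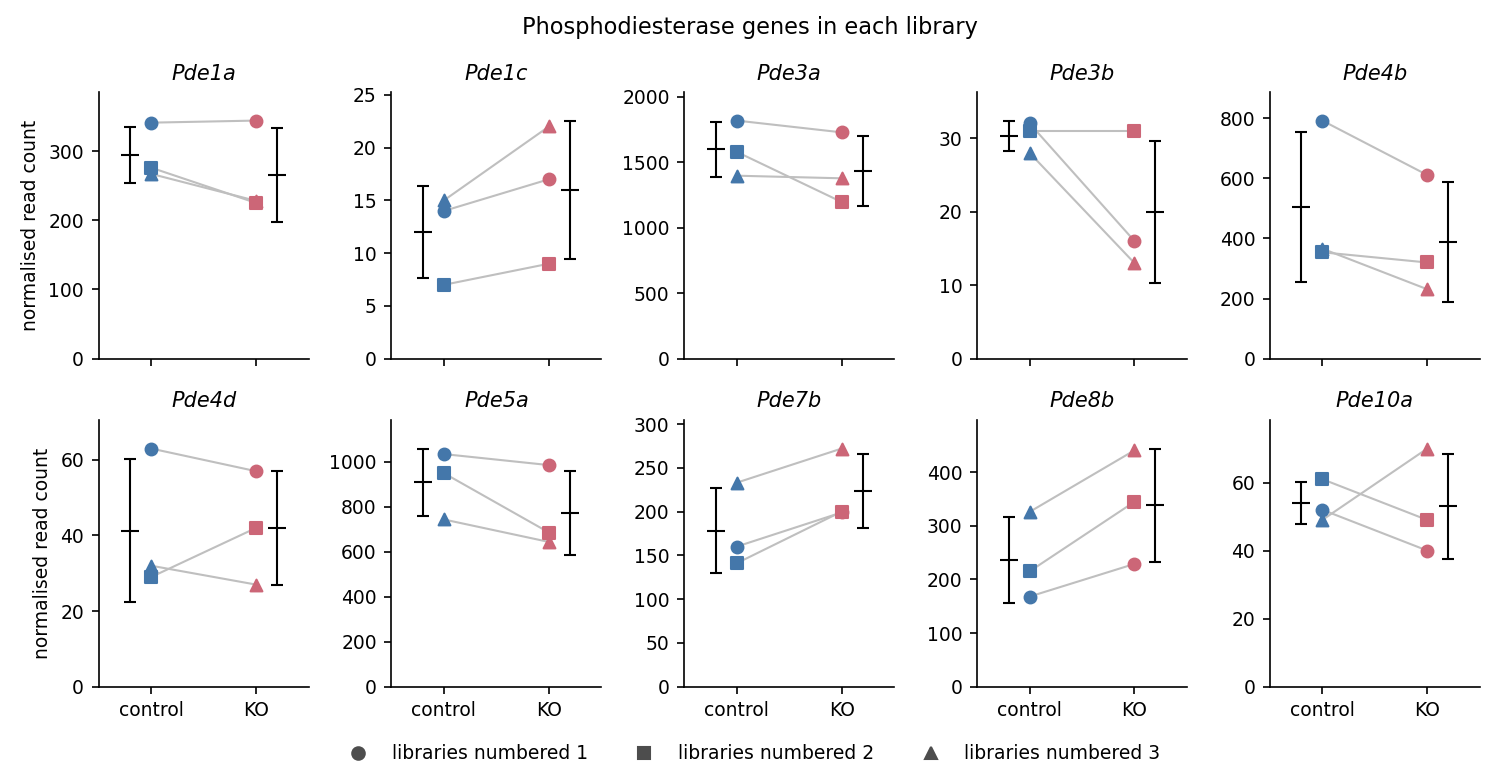
Normalised read count of the 10 genes in each library, with the scale of each panel starting at 0. Lines join libraries of the same number, and bars are means ± SD of 3 libraries. Pde4b was highest in both libraries numbered 1 (792 and 611) and Pde8b in both numbered 3 (326 and 441).

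Pde5a, the cGMP-specific enzyme that sildenafil inhibits, was lower in the KO library of every number, by a small amount in number 1. It had 1035, 950 and 744 counts in controls against 986, 686 and 644 in KO libraries. The groups overlapped through KO library 1, which was above control libraries 2 and 3. Means were 909.7 ± 150 and 772 ± 187 (SD, n = 3 each), and KO libraries had 84.9% of the control mean. The log2 fold change was -0.25 with an interval from -0.72 to 0.22 in limma (adjusted p = 0.999). With the block it was -0.45 to -0.047 (unadjusted p = 0.0211, adjusted p = 0.381). The differences within numbers were -0.070, -0.47 and -0.21. Pde5a was lowest in KO library 3, whereas the smooth muscle marker sum was lowest in KO library 2 (10466), the library furthest below its control in Pde5a. Its part in the Pde5a difference was not tested. Leaving out 1 library moved the fold change to -0.13 (without KO library 3), -0.15 (control library 1), -0.39 (control library 3) or -0.44 (KO library 1).

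Pde3a, of the family that cilostazol and milrinone inhibit, had the highest count of the 10. It had 1819, 1580 and 1398 counts in controls against 1729, 1197 and 1378 in KO libraries, so that KO library 2 was lowest and the groups overlapped. Means were 1599 ± 211 and 1434.7 ± 270 (SD, n = 3 each), a log2 fold change of -0.16 (95% interval -0.57 to 0.24, adjusted p = 0.999 with limma). The differences within numbers were -0.073, -0.40 and -0.021. The difference was widest between the libraries numbered 2. Leaving out 1 library moved the fold change to -0.043 (without KO library 2), -0.068 (control library 1), -0.26 (control library 3) or -0.31 (KO library 1), and in the fit of all 6 a fold below 0.672 lies outside the limma interval. An antisense gene, Gm28523, shares 741 bp of exon with Pde3a.

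Pde3b, the other member of that family and known from adipocytes and liver, had the lowest fold change of the 10. It had 32, 31 and 28 counts in controls against 16, 31 and 13 in KO libraries. Libraries 1 and 3 of the KO group were low and KO library 2 equalled its control, so the groups overlapped. KO libraries had 66% of the control mean, a log2 fold change of -0.67 with an interval from -1.46 to 0.13 (adjusted p = 0.999 with limma). With the block the upper bound was -0.0065 (adjusted p = 0.480). The lowest value is an estimated 9 reads, and the difference was -1.02 without KO library 2 and -0.42 without KO library 3. Adipocyte markers summed to 332 to 381 in controls and 291 to 421 in KO libraries, and of the 4 tested 2 were higher and 2 lower. Fabp4 was the largest, at 152, 199 and 237 against 153, 211 and 272. Adipoq was at 2, 4 and 4 against 0 in each KO library, and Plin1 at 36, 31 and 9 against 17, 8 and 6. The part of adipocyte transcripts in the Pde3b difference was not tested.

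The calcium-dependent enzymes were Pde1a and Pde1c. Pde1a had 341, 276 and 267 counts in controls against 344, 225 and 228 in KO libraries. The libraries numbered 1 did not differ by more than 3 counts, the other KO libraries were below all controls, and the log2 fold change was -0.17 (95% interval -0.62 to 0.28, adjusted p = 0.999 with limma). It was -0.060 without control library 1, -0.064 without KO library 2, -0.074 without KO library 3 and -0.37 without KO library 1. Pde1c, linked to SMC proliferation, was near the lower limit of the test with 14, 7 and 15 counts in controls against 17, 9 and 22 in KO libraries. Its log2 fold change of 0.37 had an interval from -0.70 to 1.44. These values stand for an estimated 8 to 20 reads, and the fold change was 0.052 without control library 2, 0.11 without KO library 3 and 0.71 without KO library 2. Pde10a, best known from the striatum of the brain, had 52, 61 and 49 counts in controls against 40, 49 and 70 in KO libraries. Its log2 fold change was -0.058 (-0.60 to 0.49), with KO library 3 highest and KO library 1 lowest.

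As a share of the summed level per kb of the 10 genes, Pde8b and Pde4b varied most across libraries. Pde8b made up 6.6%, 10.2% and 15.9% in controls against 9.4%, 18.5% and 22% in KO libraries. The Pde4b share was 17.3%, 9.3% and 9.9% in controls against 13.9%, 9.5% and 6.4% in KO libraries. Pde3a kept to 29.6% to 34.6%, and Pde5a went from 19.2% to 26.9%. Taken by substrate within the 10 genes, the dual enzymes held 43.8% to 49.7% and the cAMP-specific ones 23.4% to 35.6%. These are not shares of all phosphodiesterase transcripts. They leave out, among others, the cAMP-specific Pde4c (mean 92.5 per kb) and the dual Pde1b (37.7 per kb). The cAMP-specific share was 28%, 23.4% and 31.9% in controls against 28.2%, 34.2% and 35.6% in KO libraries, and the groups overlapped.

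**Figure D4:**
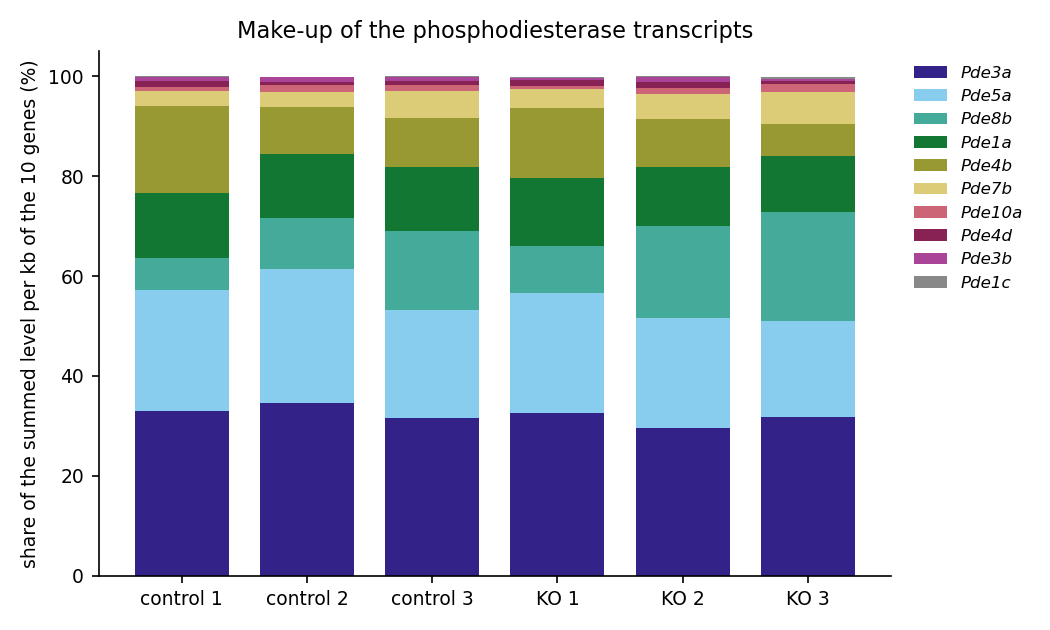
Share of each gene in the summed level per kb of the 10 genes, for each library (bars add to 100% but for rounding). Pde8b ranges from 6.6% in control library 1 to 22% in KO library 3.

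The 10 genes held 62.4% to 70.2% of the summed level per kb of all 21 cyclic nucleotide phosphodiesterase genes. Of the other 11, 7 had a mean of at least 10. Pde4c, another cAMP-specific enzyme, was at 92.5 ± 11.2 per kb (SD, n = 6), near the level of Pde5a, and with means of 512 ± 61.6 and 522.3 ± 77.2 counts in the groups (SD, n = 3 each). Pde1b had means of 202 and 204.3, Pde4a 101.7 and 114, Pde8a 82 and 99, Pde7a 68.3 and 64.7 and Pde9a 34.3 and 31.3. In these 6 genes the groups overlapped. Pde11a, a dual enzyme, had 12, 27 and 29 counts in controls against 10, 3 and 11 in KO libraries, without overlap (4.91% of all genes). Its log2 fold change was -1.46 (95% interval -2.76 to -0.16, unadjusted p = 0.0328, adjusted p = 0.999 with limma), on an estimated 3 to 30 reads. Of all genes 1.81% had an unadjusted p under 0.05 in that fit. Pde11a passed the filter of 10 only through its control mean of 22.7, with a KO mean of 8. Its difference is therefore not independent of the filter. The photoreceptor genes Pde6a, Pde6b and Pde6c were at or below 8 in every library. Pde2a was at or below 1, and 3955 bp of its exons also belong to Gm45837 on the same strand, so its level is uncertain.

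In the lists of other cyclic nucleotide genes, 0 genes passed an adjusted p of 0.05 in limma, with or without the block. Of 8 tested adenylyl cyclases, which make cAMP, 3 had an unadjusted p under 0.05 with the block (10.2% of all genes), Adcy5 and Adcy9 lower and Adcy4 higher. Adcy5 had 1168, 1132 and 755 counts in controls against 1133, 649 and 609 in KO libraries, and Adcy4 had 45, 48 and 56 against 46, 94 and 88. Adcy7 had means of 58 and 64.7. The 6 tested guanylyl cyclase and natriuretic peptide receptor genes gave 0 at that level. Gucy1b3, a subunit of the nitric oxide receptor, was at 803 ± 46.9 and 857.3 ± 129 (SD, n = 3 each), Npr2 at 59.3 and 43.3, Npr1 at 56.3 and 65.7 and Npr3 at 20.3 and 15.7.

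Of 13 tested effectors of cAMP and cGMP, 1 was under 0.05 with the block, beside 10.2% of all genes. It was Prkar1b, a regulatory subunit of the cAMP-dependent kinase (means 105.3 and 127.3, unadjusted p = 0.0498 with the block in limma). Popdc2 had means of 18.7 and 10.7, Bves 24.7 and 13.7 and Prkg2, a cGMP-dependent kinase, 270 and 224.3. Among 19 anchoring proteins and partners there was also 1 (10.2% of all genes), the kinase anchor gene Akap6. It had 1496, 1093 and 931 counts in controls against 1361, 688 and 849 in KO libraries. Akap1 had means of 281.7 and 241, Arrb1 167.3 and 150.7 and Akap10 145.7 and 159.3.

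Of 13 kinase substrates, CREB cofactors and exporters, 5 were under 0.05 with the block (10.2% of all genes), 4 lower (5.96%) and 1 higher (4.29%). The higher one was Abcc4, which exports cyclic nucleotides, with 45, 47 and 58 counts in controls against 48, 74 and 87 in KO libraries. Pln, the calcium pump regulator that the cAMP-dependent kinase phosphorylates, was at 392, 296 and 182 against 352, 133 and 99. Hspb6 had means of 172 and 136.3. Crtc3, with means of 639.7 and 552.7, was not among the 5 (unadjusted p = 0.0629 with the block in limma). Genes were named by the p without the block, so not all of the 5 are named. Without the block 0 of these 13 were under 0.05, and the groups overlapped in each gene named here.

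Genes known to be induced through CREB had a lower mean log2 level in 11 of 11 tested, with a median log2 fold change of -0.40, beside 6344 lower genes of 12735 over all. Of these 11, 9 were under 0.05 with the block, all lower (5.96% of all genes), 1 without it (1.81%) and 0 after adjustment. The list leaves out Pde4b and Pde4d, shares Crem with the list of kinase substrates, and consists largely of immediate early genes, which cell isolation also induces. Nr4a3 had 998, 437 and 413 counts in controls against 736, 271 and 259 in KO libraries, and Nr4a2 had 926, 419 and 291 against 708, 147 and 153. In both, as in Pde4b, the libraries numbered 1 were highest. Fosb, at 986, 1022 and 971 against 882, 588 and 787, did not overlap between the groups, and Nr4a1 had means of 1030 and 879.3.

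**Figure D5:**
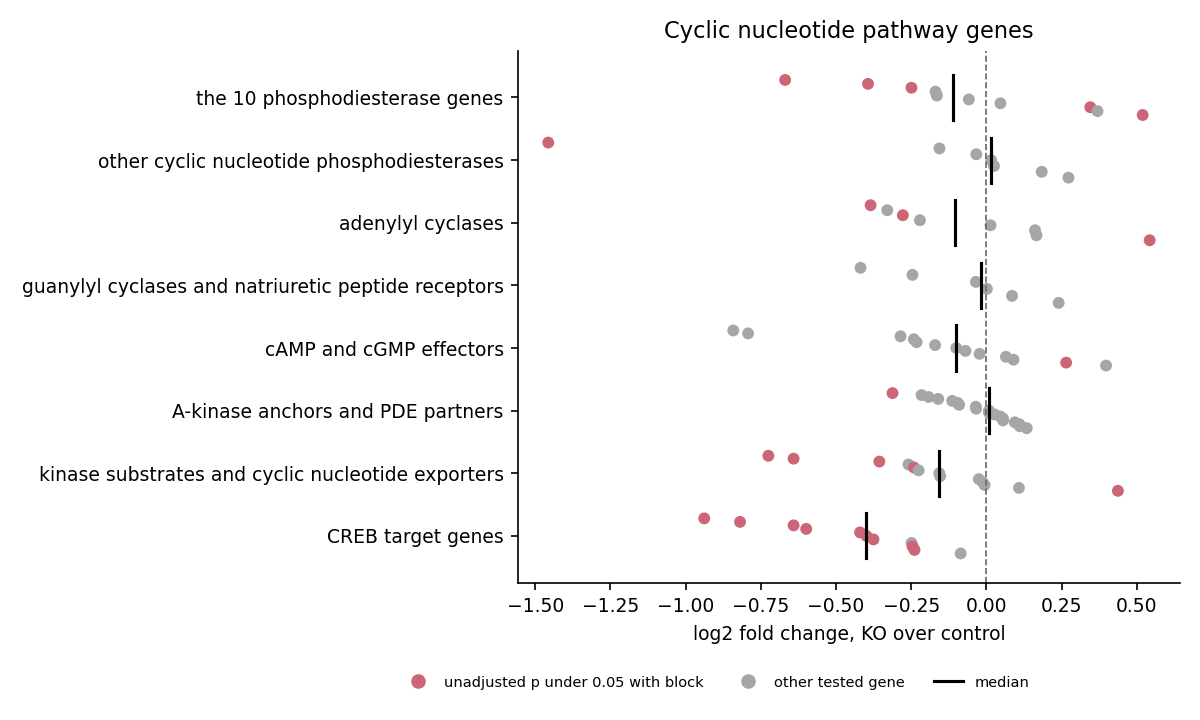
Log2 fold change of each tested gene in the lists of cyclic nucleotide genes, with the list median as a bar. Red points had an unadjusted p under 0.05 with the replicate number as a block, and 0 of the points passed after adjustment over all genes.

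The genes whose pattern over the 6 libraries was most like that of Pde3a, Pde5a and Pde4b, the 3 members with the highest mean count (not per kb), were ranked by Pearson r of log2 values among 8301 genes with a mean of at least 50. These r describe 6 libraries that share number, depth and genotype. For Pde3a they were Lifr (0.997), Tbc1d12 (0.996) and Akap6 (0.995). Pde5a was most like Kcnj12 (0.999), Col4a6 (0.999) and Kif1c (0.998), and Pde4b like Slc41a1 (0.997), Ankrd17 (0.997) and Nfkbie (0.996). Kcnj12, a potassium channel gene, had 140, 123 and 78 counts in controls against 131, 70 and 63 in KO libraries, the same order of libraries as Pde5a.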

How the data were processed

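RNA of EGFP-positive cells from skeletal muscle, depleted of cells binding CD31, CD45 and Ter119 antibodies, was made into libraries from 5 ng with a stranded total RNA kit, per the labels' protocols. The authors deposited a score, the number of reads of each gene scaled by a factor for each library and rounded, as DESeq2 in the submitters' processing notes and the spacing of low values point to. Those notes also name Trimmomatic 0.39, STAR 2.6.1d, featureCounts 1.6.5 and the builds mm10 and GRCm38.p5. Strand and duplicate handling are not given in the sources used here. What 1 read is worth was found by a grid search (0.6 to 2, steps of 0.0005) on how often each whole number occurs, which gave the estimated reads. Whole reads were not recovered, so no count model was used.

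Limma 3.58.1 in R 4.3.3 was fitted with a variance trend to log2(value + 1) of 12735 genes with a mean of at least 10 over 6 libraries, 2-sided, with Benjamini-Hochberg adjustment over all of them and a threshold of 0.05. Every p and interval (95%) is from this fit over all genes or, where the block is named, from the same model with the replicate number as a block, and the log2(value + 1) scale understates the change of low genes. The script was tested on data simulated with known changes and without an effect of number beyond depth. It called 37.5% of 2-fold and 99% of 4-fold changes in the right direction, so smaller changes can be missed. Same-numbered libraries had correlated deviations from their group means (0.586, 0.31 and 0.444 over genes, at most 0.157 for other combinations), so numbers were treated as pairing libraries. Deviations from a group mean cancel out within the group, so the values of other combinations are not independent of the same-numbered ones. The pairing by number comes from the data, and the blocked values stand where they change a count. Exon lengths and overlaps are from GENCODE M21 (GRCm38). Symbols of 195 of 196 list entries were found in the table, 2 by an older symbol. The members and lists were chosen with earlier results of these data known. Named are the 10 members, the other tested phosphodiesterase genes, up to 4 genes per list with the smallest p (or those under 0.05 after adjustment) and the 3 genes most like each of the 3 members with the highest mean count. Alternatives were other pseudocounts, filters and scalings, no trend, quality weights, the block and leaving out libraries.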

Additional observations from a re-analysis of the deposited data

How the results depend on the processing

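The 10 phosphodiesterase genes called stayed at 0 in 19 alternative settings, 15 of them planned. Upper-quartile scaling was planned without naming its genes and was computed first over the genes above 0 in each library. The version over all listed genes was defined after that result had been seen, and the blocked fits without both libraries of a number were also chosen after seeing the data. Over all genes the count, 0 without the block, was 1 with the replicate block, 2 with sample quality weights, 7 with the upper-quartile scaling over genes above 0, and, in the blocked fit, 17 without both libraries numbered 1 and 1 without both numbered 2, for causes that were not tested. That scaling moved the median of all genes by -0.25 and omitting the filter moved it by -0.14. The median log2 fold change of the 10 genes, -0.11, was -0.16 at a mean of at least 50 (7 genes), -0.20 with quality weights, -0.36 with that scaling, and, in the blocked fit without number 1, 2 or 3, -0.056, -0.077 and -0.19. It was -0.25 to -0.032 when 1 library was left out, lowest without KO library 1 and highest without KO library 2.

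Of 187 single-gene values 9 had the opposite sign, all in Pde4d and Pde10a. With 1 library left out Pde4d lay between -0.20 and 0.388, below 0 without control library 2 (-0.158), control library 3 (-0.09) and KO library 1 (-0.20). It was -0.201 with the upper-quartile scaling over genes above 0 and -0.19 in the blocked fit without number 2. Pde10a lay between -0.275 and 0.121, above 0 without control library 2 (0.031) and KO library 1 (0.121). It was 0.098 and 0.068 in the blocked fit without number 1 or 2. Depth was lowest for Pde1c and Pde3b, at 8 to 20 and 9 to 42 estimated reads.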
